A study of Mus musculus with 8 samples.

Results

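The genes examined here encode the respiratory chain and ATP synthase of mitochondria. They were taken from the table of counts by name: symbols starting with *Nduf*, *Uqcr*, *Cox4* to *Cox8* or *Atp5*, the succinate dehydrogenase genes *Sdha* to *Sdhd*, the cytochrome genes *Cyc1* and *Cycs*, and the protein-coding genes of the mitochondrial chromosome. Pseudogenes with -ps in the name and *Ndufa4l2* were left out, which removed 10 rows. This gave 112 of the 55421 genes in the table, of which 99 are nuclear and 13 mitochondrial. By complex there were 55 genes for complex I (8 of them assembly factors named *Ndufaf*), 4 for complex II, 11 for complex III with cytochrome c, 22 for complex IV and 20 for complex V. The filter on low counts kept 106 members. The other 6 were *Cox6a2*, *Cox8b*, the pseudogenes *Ndufa11b*, *Ndufb4c* and *Ndufs6b*, and a second identifier of *Atp5o*, with at most 15 reads in any library.

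RNA came from primary spermatogonial stem cell (SSC) cultures of C57BL/6 X DBA/2 F1 mice, started from testes of 6-day-old pups and kept on irradiated embryonic fibroblasts in medium with N2, bFGF and GDNF. Veh received full SSC medium, and RA the same medium with 100 nM retinoic acid, the vitamin A derivative that starts spermatogonial differentiation. NR (labelled EBSS) received 10% SSC medium in 90% Earle's Balanced Salt Solution, and NRRA (labelled RA_EBSS) received that dilution with 100 nM retinoic acid. Each condition lasted 2 days and had 2 libraries. The study asked whether nutrient restriction and retinoic acid together start meiosis. No genotype differed between the conditions.

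Each respiratory complex except complex II is built from products of both genomes. Complexes I to IV pass electrons from NADH or succinate to oxygen and, apart from complex II, pump protons, and complex V uses the gradient to make ATP. Nuclear genes carry most subunits, each from a promoter of its own, while the mitochondrial genes are transcribed as long joint precursors that are cut at tRNAs. Cells of the testis also use isoforms of some complex IV subunits and of cytochrome c that other tissues do not.

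Depth was 19261333 to 30023585 assigned reads per library. Levels are given as CPM, reads of a gene relative to the TMM-scaled library total. Germ cell markers were present (910 to 1142 CPM summed over 8 genes, among them *Dazl* and *Ddx4*), and so were those of the feeder fibroblasts, none of whose 17 markers was at 0 in every library. The fibroblast markers summed to 11880 and 12162 CPM in Veh and 9327 to 10077 under RA, but 24735 and 25948 under NR and 22463 and 22993 under NRRA. Under NR 14 of the 17 rose and 2 fell, and under RA 1 rose and 11 fell. Markers of undifferentiated spermatogonia (12 genes, none at 0) summed to 1088 and 1015 CPM in Veh, 498 and 484 under RA, 908 and 935 under NR, and 361 and 355 under NRRA. Markers of differentiating spermatogonia (7 genes, none at 0) summed to 1137 and 1090 CPM in Veh and 526 to 541 under NR, but 1748 to 1848 in the 4 libraries with retinoic acid. By number of genes, however, 4 of these 7 rose and 2 fell under NR, with a median log2 change of 0.67. Sum and median thus differed in direction under NR. Under RA 4 of the 7 rose and 1 fell, and under NRRA 5 rose and 2 fell. In bulk RNA fewer cells of a type and less RNA per cell cannot be told apart, and the part of these shifts in the values of the members was not tested.

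Most members were lower in nutrient-restricted medium. Under NR, 66 of 106 members fell against Veh (62.3%) and 1 rose, *Cox6b2* (edgeR quasi-likelihood test, adjusted p under 0.05). Of all 20477 tested genes 22.2% fell and 21.7% rose, and of the 10895 with a mean of 10 CPM or more 33.8% fell. Under NRRA, 73 members fell (68.9%) and 2 rose, beside 28.7% and 41.4% lower and 30.1% higher in those backgrounds. Under RA, 35 members fell (33%) and 3 rose, beside 23.4% and 35.5% lower and 19.8% higher, so that the share under RA was near that of other well expressed genes. The changes were modest in size. The median log2 fold change over the 93 nuclear members was -0.22 under NR, -0.22 under NRRA and -0.094 under RA, and over all tested genes it was 0.0057, 0.03 and -0.019. *Ndufaf6* was the single member past a 2-fold change at that threshold, under NRRA against Veh and against NR. Of all genes, 7.49% passed 2-fold under RA, 8.29% under NR and 15.9% under NRRA against Veh, 8.29% for NRRA against RA, 8.7% for NRRA against NR and 2.24% in the interaction. Without NR replicate 2 the number of lower members under NR was 43, and without RA replicate 2 the number under RA was 18. Scaling by total count alone left 9 lower members under RA and turned the nuclear median there to 0.0073, while the numbers lower under NR and NRRA were then 59 and 47.

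**Figure D1:**
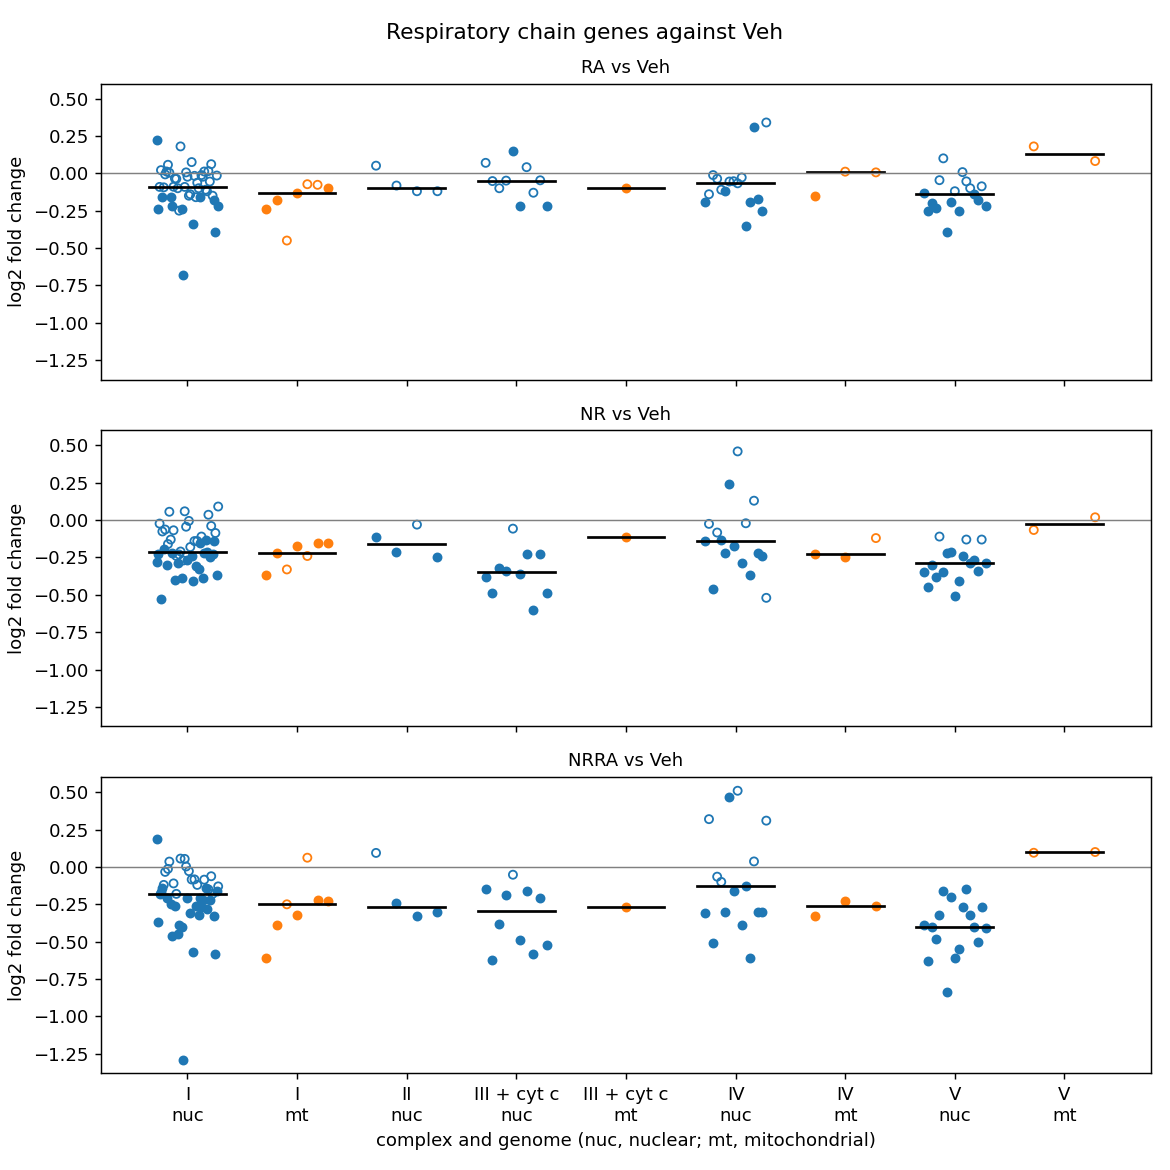
Log2 fold change of each tested member against Veh under RA, NR and NRRA, by complex and genome; filled points passed adjusted p under 0.05, open points did not, and black lines are medians over the tested members. All 17 nuclear complex V points lie below 0 under NRRA, and 1 complex I point, *Ndufaf6*, lies at -1.29; the pseudogene *Cox6c2* (0.0714 to 0.529 CPM) is left out as a point.

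The summed levels of nuclear and of mitochondrial members were both lower. The nuclear members summed to 8044 and 7792 CPM in Veh, 7369 and 7180 under RA, 6637 and 6601 under NR, and 6332 and 6427 under NRRA. The mitochondrial members summed to 24909 and 25501 CPM in Veh, 23037 and 22734 under RA, 21976 and 21694 under NR, and 19608 and 20235 under NRRA. On this scale Veh was highest and NRRA lowest for both genomes, and no condition overlapped another. As a share of all assigned reads, without TMM scaling, this order held for the mitochondrial members but not for the nuclear ones. The nuclear share was 0.77% and 0.747% in Veh and 0.751% and 0.743% under RA, which overlapped. It was 0.651% and 0.646% under NR and 0.655% and 0.668% under NRRA, so that NRRA lay above NR. In CPM under NRRA the nuclear sum was 80.6% and the mitochondrial sum 79.0% of the mean of Veh, and the ratio of mitochondrial to nuclear CPM lay between 3.10 and 3.31 in every library. How alike the 2 genomes were depended on the processing. Over the alternatives other than left-out libraries, the mitochondrial median log2 change under NRRA lay between -0.54 and -0.14 (main -0.25). The nuclear median there lay between -0.24 and -0.1. Under RA these ranges were -0.37 to 0.0035 and -0.1 to 0.0073.

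Nuclear complex V, the ATP synthase, summed to 3120 and 3001 CPM in Veh, 2773 and 2682 under RA, 2379 and 2382 under NR, and 2202 and 2235 under NRRA, which is 72.5% of Veh. Complex III with cytochrome c was at 95.4% under RA, and was at 79.0% under NR and 80.0% under NRRA. Complex I stood at 86.6% and complex IV at 84.7% under NRRA. By sum complex II was the least changed, at 98.2% under RA, 91.3% under NR and 94.0% under NRRA. These sums lean on the most abundant genes, and differences between complexes were not tested. *Sdha*, which was not called under NRRA against Veh, made up 243 of the 497 CPM of complex II in Veh. By median log2 change under NRRA, complex II was at -0.27, beside -0.18 for nuclear complex I and -0.13 for nuclear complex IV. By number of genes, under NRRA 17 of 17 tested nuclear complex V genes fell, 9 of 10 of complex III with cytochrome c, 3 of 4 of complex II, 26 of 45 of complex I and 9 of 17 of complex IV. Without assembly factors, 22 of 37 complex I genes fell.

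**Figure D2:**
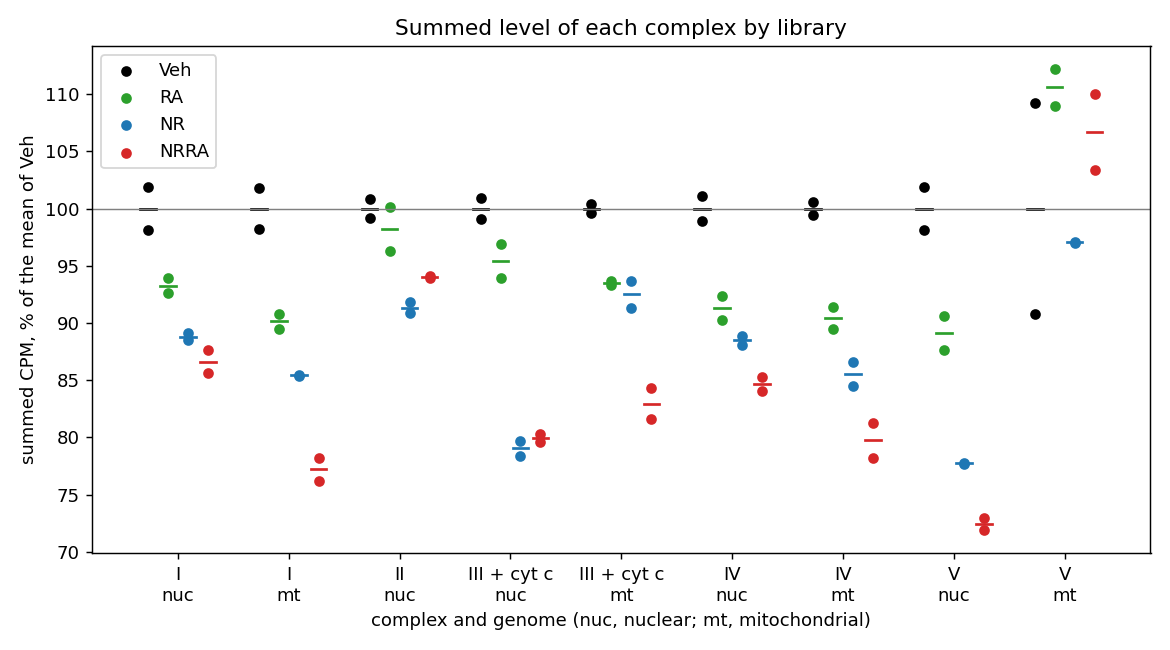
Summed CPM of each complex in each of the 8 libraries, as a percentage of the mean of Veh (y axis, not starting at 0), for nuclear (nuc) and mitochondrial (mt) genes; short lines are means of 2 libraries. Nuclear complex V is lowest, at 72.5% of Veh under NRRA, and the 2 mitochondrial complex V genes, with 21.6 CPM in Veh, do not follow the others.

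Complex I, the largest of the complexes, takes electrons from NADH. Under NR, 23 of its 45 tested nuclear genes fell and 0 rose by edgeR, by DESeq2 or at an unadjusted p under 0.05. The largest fall under NR was that of *Ndufa12*, an accessory subunit of the matrix arm. *Ndufa12* measured 47.8 and 43.3 CPM in Veh, 47.1 and 45.6 under RA, 32.4 and 30.8 under NR, and 38.7 and 42.2 under NRRA. Its NR libraries were the lowest and its NRRA libraries stood between NR and the rest, a log2 change of -0.53 ± 0.069 (SE) under NR (edgeR adjusted p = 4.65e-07) and of 0.36 ± 0.067 from NR to NRRA (adjusted p = 7.66e-05). Its fall under NRRA against Veh, -0.17 ± 0.065, was at 0.0049 after an offset for GC content and length.

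*Ndufv1*, chosen after its values were seen for the largest fall among nuclear complex I subunits under RA and NRRA, encodes the flavin-bearing subunit where NADH is oxidised. It measured 156 and 147 CPM in Veh, 141 and 144 under NR, 121 and 111 under RA, and at most 102 in both NRRA libraries. Here both conditions with retinoic acid were low and NR was close to Veh: the log2 change was -0.086 ± 0.049 under NR (adjusted p = 0.165), -0.39 ± 0.05 under RA (adjusted p = 5e-07) and -0.58 ± 0.049 under NRRA (adjusted p = 1.53e-10).

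*Ndufaf6*, an assembly factor for complex I, is a low-abundance gene with 7.92 and 8.85 CPM in Veh, 7.84 and 6.22 under NR, 4.84 and 5.54 under RA, and 3.03 and 3.78 under NRRA. It followed the same order as *Ndufv1*, with a log2 change of -0.68 ± 0.15 under RA (adjusted p = 0.000499) and -1.29 ± 0.15 under NRRA (adjusted p = 5.31e-08). Over the 8 assembly factors, 2 fell under RA, 2 under NR and 4 under NRRA.

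*Ndufa1*, a small membrane-arm subunit encoded on the X chromosome, fell with the group under NR but went against it under RA and NRRA. It measured 23.5 and 25.3 CPM in Veh, 27.4 and 29.2 under RA, 20.5 and 19.8 under NR, and 26.1 and 29.4 under NRRA. Both conditions with retinoic acid were above Veh and NR was below it, with log2 changes of 0.22 ± 0.079 under RA (adjusted p = 0.0251), -0.28 ± 0.083 under NR (adjusted p = 0.00763) and 0.19 ± 0.077 under NRRA (adjusted p = 0.0367). The rises under RA and NRRA missed the threshold in DESeq2. *Ndufa4*, which carries a complex I name but is now placed in complex IV, fell under NR (-0.30 ± 0.054, adjusted p = 6.5e-05) and under NRRA (-0.21 ± 0.053, adjusted p = 0.00141).

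Complex II, succinate dehydrogenase, is the only complex shared with the citric acid cycle and the only one with no mitochondrial gene. *Sdha*, its flavoprotein, measured 244 and 241 CPM in Veh, 256 and 247 under RA, 229 and 219 under NR, and 258 and 260 under NRRA. NR was lowest and NRRA highest. It fell slightly under NR (-0.11 ± 0.042, adjusted p = 0.032) and rose from NR to NRRA (0.21 ± 0.042, adjusted p = 0.000206). The fall of *Sdha* under NR missed the threshold with the offset for GC content and length, by total count and by upper quartile. The iron-sulfur subunit *Sdhb* and the membrane anchor *Sdhd* fell under NR (-0.21 ± 0.05 and -0.25 ± 0.057) and under NRRA (-0.24 ± 0.05 and -0.30 ± 0.056). The other anchor, *Sdhc*, measured 92.4 and 97.8 CPM under NR beside 97.3 and 97.1 in Veh, but 78.6 and 75.7 under NRRA (-0.33 ± 0.055, adjusted p = 9.18e-06). Under RA 0 of the 4 passed the edgeR test and 0 passed in DESeq2, while 2 were lower at an unadjusted p under 0.05, *Sdhc* and *Sdhd* (adjusted p = 0.0898 and 0.0751).

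Complex III passes electrons to cytochrome c. Of the 10 nuclear genes for both, 9 fell under NR and 9 under NRRA, while 2 fell and 1 rose under RA. *Uqcrfs1*, the Rieske iron-sulfur protein, measured 54.7 and 57.1 CPM in Veh, 51.8 and 50.3 under RA, 38.8 and 35.3 under NR, and 36.6 and 38.4 under NRRA. The 4 libraries in diluted medium lay below the 4 in full medium, with or without retinoic acid, at -0.60 ± 0.063 under NR (adjusted p = 1.54e-08) and -0.58 ± 0.061 under NRRA (adjusted p = 8.29e-09).

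*Cycs*, the somatic cytochrome c that carries electrons to complex IV and also takes part in apoptosis, measured 54.5 and 59 CPM in Veh, 53.7 and 55.6 under RA, 39.4 and 41.2 under NR, and 38.2 and 35.4 under NRRA. It showed the same split by medium, at -0.49 ± 0.063 under NR (adjusted p = 3.93e-07), -0.62 ± 0.062 under NRRA (adjusted p = 2.38e-09) and -0.052 ± 0.061 under RA (adjusted p = 0.526). *Cyct*, the testis cytochrome c, which is no member by the rule, rose under RA (0.51 ± 0.089, adjusted p = 3.82e-05). Of the read-length stretches in *Cycs* 22.6% also occur in annotated pseudogenes, to which reads could be assigned.

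*Cyc1*, the cytochrome c1 heme protein, was lower under NR than in any other condition: 88 and 90.3 CPM, beside 121 and 111 in Veh, 126 and 119 under RA, and 107 and 102 under NRRA. Its log2 change was -0.38 ± 0.053 under NR (adjusted p = 1.44e-06) and 0.23 ± 0.052 from NR to NRRA (adjusted p = 0.000833). *Uqcrq*, a small subunit, fell in all 3 conditions, by 0.22 ± 0.06 on the log2 scale under RA, 0.49 ± 0.061 under NR and 0.52 ± 0.06 under NRRA. *Uqcrb*, a ubiquinone-binding subunit, rose under RA (0.15 ± 0.061, adjusted p = 0.0448), but an offset for GC content and length turned this to -0.057, and *Cyc1* under NRRA from -0.15 to 0.05.

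Complex IV, cytochrome c oxidase, has a core from mitochondrial genes and a shell of nuclear subunits, several with tissue isoforms. Under NR 9 of 17 tested nuclear genes fell and 1 rose, under NRRA 9 fell and 1 rose, and under RA 6 fell and 1 rose. *Cox5a*, a matrix-side subunit, had the largest fall under NR that passed the test. Its 4 libraries in full medium measured 88.2 to 89.4 CPM, namely 88.9 and 89.4 in Veh and 88.7 and 88.2 under RA. The 4 in diluted medium measured 65.2 and 64.4 under NR and 64 and 60.9 under NRRA. The log2 change was -0.46 ± 0.052 under NR (adjusted p = 5.34e-08) and -0.51 ± 0.052 under NRRA (adjusted p = 2.82e-09). A gene on the opposite strand, *Gm26631*, overlaps 12.8% of its exon bases.

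*Cox7b*, an X-linked subunit, fell in each condition and most under NRRA, from 54.9 and 58.7 CPM in Veh to 48.1 and 51.1 under RA, 45.9 and 42.3 under NR, and 36.4 and 38 under NRRA (-0.61 ± 0.063, adjusted p = 4.64e-09). *Cox7a2l*, which joins complexes III and IV into supercomplexes, was lowest under RA. It measured 80.8 and 71.2 CPM in Veh, 60.2 and 59.3 under RA, 74.4 and 75.5 under NR, and 69.8 and 68.9 under NRRA. It fell under RA (-0.35 ± 0.059, adjusted p = 2.65e-05) and rose from RA to NRRA (0.22 ± 0.057, adjusted p = 0.00343).

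The isoforms of subunit 6B had calls of opposite sign. *Cox6b1*, the general form of subunit 6B, measured 141 and 141 CPM in Veh, 131 and 128 under RA, 119 and 122 under NR, and 113 and 115 under NRRA. *Cox6b2*, the testis form, measured 23.6 and 21.9 CPM in Veh, 23.1 and 21 under RA, 27 and 27 under NR, and 31 and 32.2 under NRRA. *Cox6b1* thus fell under NR (-0.22 ± 0.046, adjusted p = 0.000259) and NRRA (-0.30 ± 0.046, adjusted p = 2.97e-06), and *Cox6b2* rose under NR (0.24 ± 0.076, adjusted p = 0.0111) and NRRA (0.47 ± 0.073, adjusted p = 3.4e-06). Per kb of exon, *Cox6b1* remained the more abundant in Veh, at 199 against 20.5 CPM per kb. The rise of *Cox6b2* under NR missed the threshold in DESeq2.

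*Cox7b2*, another testis form, measured 7.97 and 9.94 CPM in Veh and 10.7 and 11.4 under RA (0.31 ± 0.12, adjusted p = 0.0334), with 8.99 to 10.2 in the diluted media. Its rise under RA missed the threshold in DESeq2, with the offset for GC content and length, and without a count filter. *Cox8c*, also expressed in testis, measured 2.92 and 2.45 CPM in Veh, 4.18 and 2.84 under RA, 2.02 and 1.74 under NR, and 3.28 and 3.37 under NRRA. It rose from NR to NRRA (0.83 ± 0.21, adjusted p = 0.00204). The general forms *Cox7b* and *Cox8a* fell under NRRA (-0.61 ± 0.063 and -0.30 ± 0.048), as did *Cox7a2* (-0.39 ± 0.058), the general counterpart of *Cox7a1*. *Cox4i1*, the general form of subunit 4, fell under RA, NR and NRRA (-0.19 ± 0.042, -0.14 ± 0.042 and -0.31 ± 0.042), its fall under NR being at 0.0065 after the GC content and length offset. *Cox6a1* fell under NR (-0.13 ± 0.048, adjusted p = 0.029), and the same offset turned it to 0.052. The muscle and lung forms were scarce: *Cox4i2* and *Cox7a1* were at 0.356 to 2.14 CPM and passed no test, and *Cox6a2* and *Cox8b* were not tested.

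**Figure D3:**
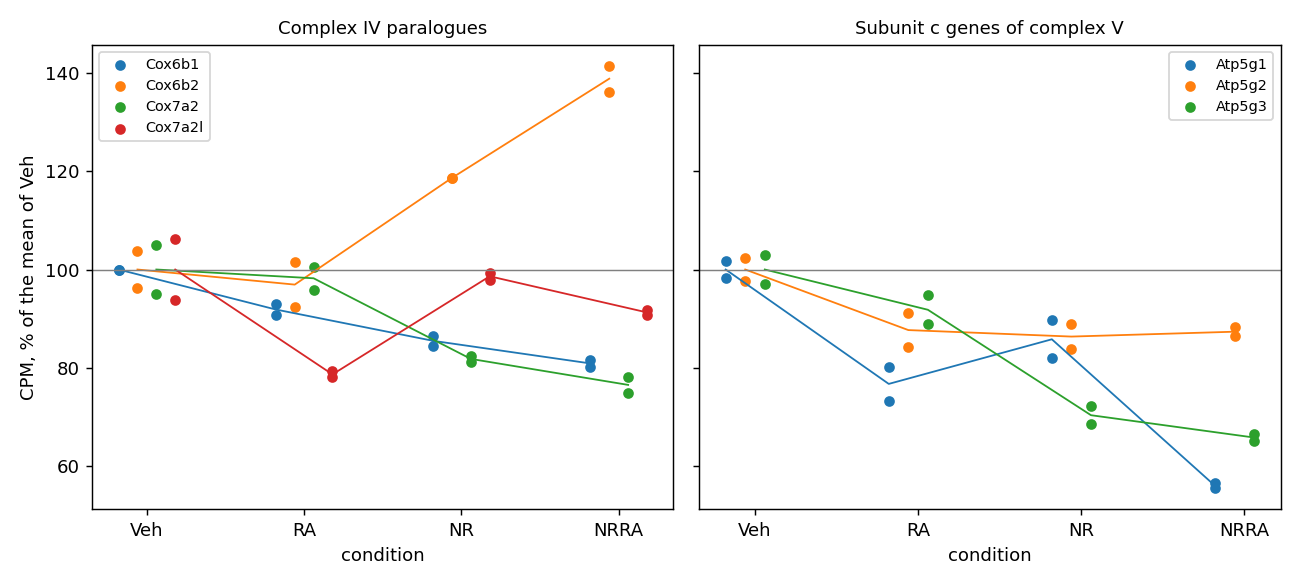
CPM of complex IV paralogues (left) and of the subunit c genes of complex V (right) in each library, as a percentage of the mean of Veh (y axis, not starting at 0); lines join the means of 2 libraries. Of the 7 genes plotted *Cox6b2* is the single one above Veh under NR and NRRA, and *Atp5g1* is lowest of all under NRRA.

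All 17 tested nuclear genes of ATP synthase fell under NRRA, 14 fell under NR and 10 under RA. By edgeR and by DESeq2 0 rose in these comparisons, and at an unadjusted p under 0.05 1 was higher under RA. *Atp5b*, the catalytic beta subunit and the most abundant nuclear member, measured 1042 and 976 CPM in Veh, 863 and 835 under RA, 739 and 742 under NR, and 652 and 651 under NRRA. The conditions did not overlap, and the log2 change was -0.25 ± 0.038 under RA (adjusted p = 6.31e-06), -0.45 ± 0.038 under NR (adjusted p = 2.69e-10) and -0.63 ± 0.038 under NRRA (adjusted p = 1.26e-13). It was named after its values were seen, for its level. Among the genes of the stalk, *Atp5f1*, which encodes subunit b, was at 222 and 221 CPM in Veh and 238 and 236 under RA (0.10 ± 0.042, adjusted p = 0.0609), fell under NR (-0.35 ± 0.043, adjusted p = 1.37e-07), and rose from NR to NRRA (0.19 ± 0.042, adjusted p = 0.000558).

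Subunit c, which forms the rotor ring, is made from *Atp5g1*, *Atp5g2* and *Atp5g3*, whose mature proteins are the same. *Atp5g1* measured 83.3 and 80.5 CPM in Veh, 65.7 and 59.9 under RA, 67.1 and 73.4 under NR, and 46.2 and 45.4 under NRRA. It was lower under RA and under NR than in Veh and lowest under NRRA, at -0.39 ± 0.059 under RA (adjusted p = 6.11e-06), -0.22 ± 0.058 under NR (adjusted p = 0.00332) and -0.84 ± 0.06 under NRRA (adjusted p = 3.56e-12). *Atp5g3* measured 138 and 130 CPM in Veh, 127 and 119 under RA, 91.7 and 96.7 under NR, and 87.1 and 89.1 under NRRA.

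*Atp5g3* split by medium, at -0.51 ± 0.052 under NR (adjusted p = 7.61e-09), -0.61 ± 0.051 under NRRA (adjusted p = 1.13e-10) and -0.12 ± 0.051 under RA (adjusted p = 0.052). *Atp5g2* was at 46.4 and 44.3 CPM in Veh and at 38 to 41.3 in the 6 other libraries, with log2 changes of -0.19 ± 0.064 under RA, -0.21 ± 0.064 under NR and -0.20 ± 0.062 under NRRA. Differences between the 3 genes were not tested. For *Atp5g2*, 34.7% of read-length stretches also occur in pseudogenes, and the GC content and length offset turned its change under NRRA to 0.032.

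The mitochondrial chromosome encodes 7 subunits of complex I, 1 of complex III, 3 of complex IV and 2 of complex V. Of these 13 members 6 fell under RA, 8 under NR and 9 under NRRA, and 0 rose by edgeR, by DESeq2 or at an unadjusted p under 0.05. *mt-Nd1* fell most. It measured 3774 and 3856 CPM in Veh, 3235 and 3235 under RA, 2979 and 2929 under NR, and 2444 and 2539 under NRRA. The order was Veh, RA, NR and NRRA with no overlap, at -0.24 ± 0.032 under RA (adjusted p = 1.17e-06), -0.37 ± 0.032 under NR (adjusted p = 4.37e-10) and -0.61 ± 0.032 under NRRA (adjusted p = 7.03e-15).

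*mt-Co1*, the catalytic core of complex IV and the most abundant member, measured 8502 and 8605 CPM in Veh, 7812 and 7646 under RA, 7406 and 7231 under NR, and 6687 and 6947 under NRRA (-0.33 ± 0.03, adjusted p = 6.97e-10). *mt-Cytb*, the core of complex III, fell by 0.27 ± 0.032 on the log2 scale under NRRA, *mt-Nd2* by 0.39 ± 0.036 and *mt-Nd4* by 0.32 ± 0.034. *mt-Nd5* and *mt-Nd6*, which lie on opposite strands, fell least of the 7 abundant genes under NRRA, by 0.22 ± 0.032 and 0.23 ± 0.035. The strand setting of the counting is not given, so reads from the opposite strand may be among those of *mt-Nd6*. The 2 ribosomal RNAs of the same chromosome fell under RA (-0.17 ± 0.043 and -0.24 ± 0.038) but passed no test under NR or NRRA against Veh: *mt-Rnr1* measured 272 and 271 CPM in Veh and 293 and 284 under NRRA (0.086, adjusted p = 0.0845), and *mt-Rnr2* 527 and 546 in Veh and 535 and 532 under NRRA. Libraries were captured by poly(A), so that the level of ribosomal and tRNAs in the cells is not given by these counts.

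The other 6 mitochondrial members had 47.4 to 482 reads per library on average, beside 27170 to 182478 for the 7 abundant genes. Of these 6, *mt-Co2*, *mt-Co3*, *mt-Atp6*, *mt-Nd3* and *mt-Nd4l* share 97.6% to 99.9% of their read-length stretches with annotated nuclear copies in a block of chromosome 1, which spans 24611535 to 24616197 on GRCm38 as far as its annotated copies go. *mt-Co2* and *Gm28661* (chr1:24614885-24615565, minus strand) were identical over 681 bases, and *mt-Atp6* and *Gm10925* over 678. The copies held reads of the same order, with 319 per library on average for *Gm28661* and 482 for *mt-Co2*. The pair of *mt-Nd3* and *Gm28438* differed at 1 of 345 bases. The stretch around it is shown because over the aligned bases reads of the 2 genes differ nowhere else, with the difference in capitals, from the GENCODE M21 transcripts (chrM:9459-9518, plus strand, and chr1:24613060-24613119, minus strand).
mt-Nd3: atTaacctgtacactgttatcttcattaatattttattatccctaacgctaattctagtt
Gm28438: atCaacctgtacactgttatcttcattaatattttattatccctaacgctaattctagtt

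How multiply placed reads were counted is not given in the sources used here, so the levels of these genes are not comparable with the 7 abundant ones. *mt-Atp8* was also low, at 157 reads on average, with no annotated copy. Only annotated genes were searched. On the mitochondrial chromosome *mt-Atp8* begins between *mt-Co2* and *mt-Atp6*. Their copies *Gm28661* and *Gm10925* are separated by unannotated bases of the same block, so a copy of *mt-Atp8* there would not have been seen. Of the 6, 1 fell under NR and 2 under NRRA (*mt-Co2*, -0.23 ± 0.098, adjusted p = 0.0498, and *mt-Co3*, -0.26 ± 0.082, adjusted p = 0.00861), and *mt-Atp6* and *mt-Atp8* had log2 changes of 0.095 ± 0.092 and 0.10 ± 0.13 under NRRA. With the 7 abundant genes alone, 6 fell under RA, 7 under NR and 7 under NRRA. Among these 7, *mt-Nd4* shares 60.7% and *mt-Co1* 30.7% of read-length stretches with nuclear copies, so their counts are open to the same uncertainty. The copy *Gm28439* held 258 reads per library on average, beside 32857 for *mt-Nd4*. After the GC content and length offset *mt-Atp6* and *mt-Atp8* were at -0.25 and -0.42 under NRRA and passed the test.

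**Figure D4:**
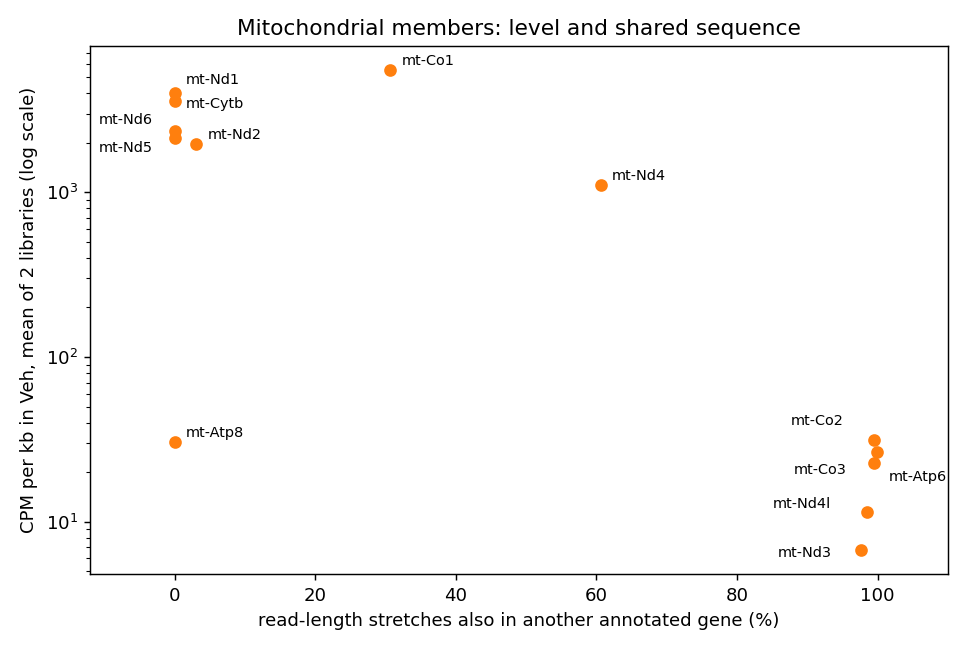
Level of each mitochondrial member in Veh (y axis, log scale, CPM per kb of gene, mean of 2 libraries) against the percentage of its read-length stretches found in another annotated gene (x axis). The 5 genes above 97% lie at 6.72 to 31.5 CPM per kb and the 7 abundant ones at 1103 to 5536. *mt-Atp8* is low without an annotated copy, and unannotated sequence was not searched.

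The effect of diluted medium was measured without and with retinoic acid. NR against Veh and NRRA against RA rest on different libraries. For NRRA against RA, 57 members fell (53.8%) and 2 rose, beside 19.4% lower and 20.9% higher among all tested genes and lower in 27.7% among those at 10 CPM or more. Of 106 members 48 fell in both comparisons (45.3%; 13.8% of all genes did), 1 rose in both, *Cox6b2*, and 0 moved in opposite directions. The log2 changes of the members in both comparisons had r = 0.45 across genes, which are not independent replicates, and 0.67 across all tested genes. Without NRRA replicate 1 the number lower for NRRA against RA was 37.

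**Figure D5:**
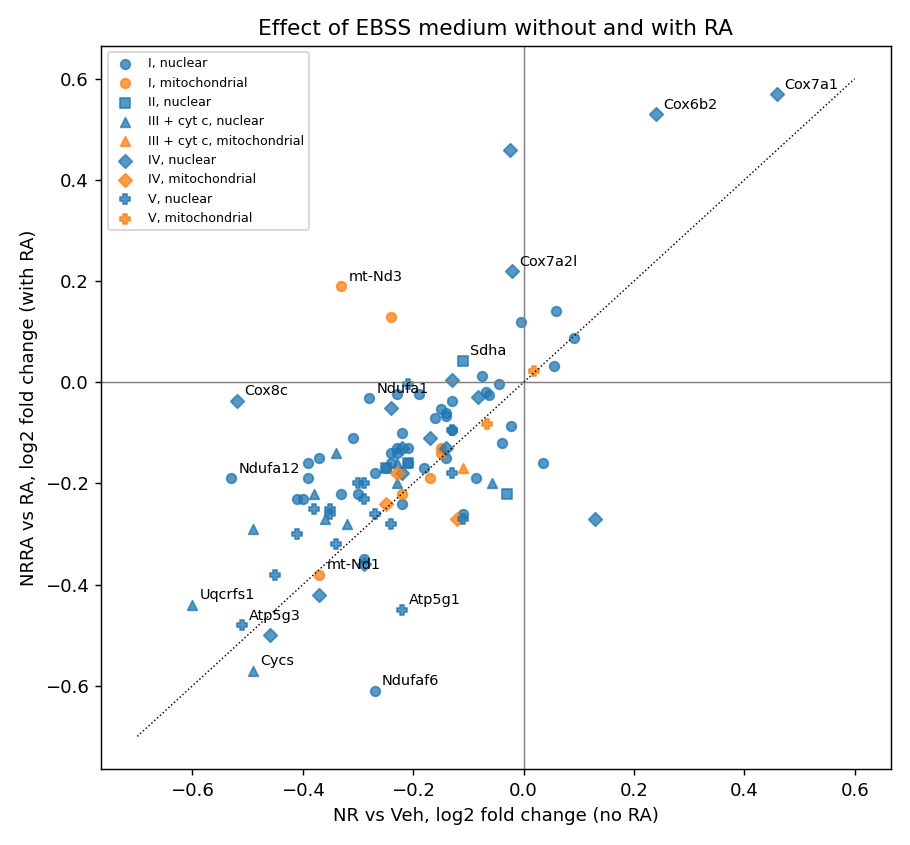
Log2 fold change of each tested member in diluted medium without retinoic acid (x axis, NR vs Veh) and with it (y axis, NRRA vs RA), by complex (symbol) and genome (colour); the dotted line marks equal change and *Cox6c2* is left out. Most points lie below 0 on both axes, and *Cox6b2* lies above 0 on both.

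The effect of retinoic acid was less uniform. For NRRA against NR, 22 members fell (20.8%) and 12 rose, beside 22.1% of all genes that fell and 21.3% that rose. Of the genes at 10 CPM or more 30.5% fell and 24.7% rose. Left out singly, either NRRA replicate 1 or NRRA replicate 2 gave 14 lower members and either Veh library gave 35, and without NR replicate 2 the number higher was 6. Total-count scaling gave 10 lower and 19 higher. Of the members, 18 fell with retinoic acid in both media, among them *Ndufv1*, *Ndufaf6*, *Atp5b*, *Atp5g1*, *Cox7b* and 5 mitochondrial genes, and 1 rose in both, *Ndufa1*. These 18 are 17% of the members, near the 15.3% of all genes lower in both, and 12.6% of all genes were higher in both. The 12 that rose in diluted medium included *Cyc1*, *Sdha*, *Ndufa12*, *Atp5f1*, *Cox6b2* and *Cox8c*. The difference between the effects of retinoic acid in the 2 media was tested as an interaction. *Ndufa12* was the single member to pass (0.34 ± 0.094, adjusted p = 0.0151), and DESeq2 gave 0. Of all genes 6.37% passed in that direction and 6.58% in the other, and of those at 10 CPM or more 9.78% and 9.2%. Without Veh replicate 2, 9 members passed in the positive direction. At an unadjusted p under 0.05 there were 13 members with a positive and 3 with a negative interaction.

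Many nuclear respiratory genes carry sites for NRF1, for GABP of the ETS family, or for YY1. RefSeq promoter windows (GRCm38.p6, 250 bases before to 50 after the start) were at hand for 76 tested nuclear members. The NRF1 letters GCGCANGCG, on either strand, were found in 23 of these (30.3%), beside 7.03% of 27025 genes with a window. The ETS letters CCGGAAG were found in 19 (25%), beside 9.93%, and the YY1 letters ATGGCGG in 12 (15.8%), beside 4.69%. At least 1 of the 3 was present in 57.9% of the members and 18.5% of all genes. The 76 members had all passed the filter on low counts, while the 27025 genes include some that did not. These shares thus do not compare like sets. Members with and without the NRF1 letters had median log2 changes of -0.30 and -0.24 under NRRA, those with and without ETS letters -0.28 and -0.21, and those with and without YY1 letters -0.10 and -0.27.

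Stretches upstream of the start are shown for *Cycs* and *Atp5g3*, which were low in diluted medium, and for *Atp5g1*, which was low under NRRA above all. All are from RefSeq windows (GRCm38.p6, minus strand) and lie outside annotated exons. Those of *Cycs* and *Atp5g3* run up to the start. For *Atp5g1* an annotated exon begins ahead of the RefSeq start, so the bases nearest that start are left out. NRF1 letters are in capitals, and in *Cycs* they match on the opposite strand. The stretches lie at chr6:50566570-50566689, chr2:73911327-73911446 and chr11:96075671-96075751.
Cycs: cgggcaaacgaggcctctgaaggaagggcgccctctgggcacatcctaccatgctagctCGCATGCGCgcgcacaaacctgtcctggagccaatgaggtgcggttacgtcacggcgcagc
Atp5g3: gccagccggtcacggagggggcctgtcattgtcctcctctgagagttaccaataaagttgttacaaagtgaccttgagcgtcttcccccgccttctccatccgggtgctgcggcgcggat
Atp5g1: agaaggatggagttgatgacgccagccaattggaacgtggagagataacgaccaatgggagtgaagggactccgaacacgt

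In *Cycs* the letters lie 61 bases before the start. *Atp5g3* holds them 14 bases after its start, and *Atp5g1*, *Cox5a*, *Cox7b*, *Uqcrfs1*, *Ndufa12*, *Ndufv1* and *Cox6b2* hold none of the 3 sets in their windows. *Cox6b1* holds the ETS letters at 28 bases before the start. No match says only that these letters are not in the window.

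Of 77 tested genes for proteins of the mitochondrial ribosome, which translates the 13 mitochondrial messages, 49 fell and 1 rose under NR. Under NRRA 52 fell, and under RA 27 fell and 1 rose. Of all tested genes 22.2%, 28.7% and 23.4% fell under NR, NRRA and RA, and 21.7%, 30.1% and 19.8% rose. Of those at 10 CPM or more 33.8%, 41.4% and 35.5% fell, and the ribosomal number under RA was near that share. The same shares stand beside the lists that follow. *Mrps6* fell most in both NR (-1.02) and NRRA (-1.53). Of 21 genes of the citric acid cycle and pyruvate dehydrogenase, 14 fell and 2 rose under NR, and 15 fell and 2 rose under NRRA. *Pdk4*, a kinase that switches off pyruvate dehydrogenase, rose under RA, NR and NRRA (1.69, 0.90 and 1.70), while *Dlst* fell under NR (-0.52) and *Idh3a* under NRRA (-0.62).

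Among 11 tested carriers, uncoupling proteins and inhibitors, 7 fell and 2 rose under NR, and 8 fell and 2 rose under NRRA. *Slc25a5*, an ADP/ATP carrier, fell by 0.59 and 1.00 on the log2 scale, and *Slc25a31*, the germ cell form of that carrier, rose by 0.23 and 0.14. Assembly factors outside the member list were mixed, with 10 of 40 lower and 2 higher under NR and 11 lower and 6 higher under NRRA, as were the 26 genes for mitochondrial DNA and RNA, with 7 lower and 2 higher under NR and 12 lower and 2 higher under NRRA. Of 12 regulators of mitochondrial biogenesis, 3 rose and 3 fell under NR. *Nrf1* fell under RA, NR and NRRA (-0.23, -0.34 and -0.45), *Gabpa* rose under RA and NRRA (0.37 and 0.34), and the coactivator *Ppargc1b* fell under RA and NRRA (-1.53 and -1.75) and rose under NR (0.77). Its paralogue *Ppargc1a*, at 22.9 reads per library on average, rose under RA (1.71 ± 0.39, adjusted p = 0.000748) and was at 0.12 ± 0.48 under NR and 0.92 ± 0.41 under NRRA. *Perm1*, a regulator of the same pathway, fell under RA, NR and NRRA (-0.52, -0.99 and -1.40). Of 12 tested other mitochondrial transcripts, ribosomal and transfer RNAs, 0 fell and 2 rose under NR, and 2 fell and 1 rose under NRRA.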

How the data were processed

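The authors sequenced poly(A) RNA of 8 libraries, 2 for each of 4 conditions, and deposited a table of raw counts, whole reads per gene without normalization. The submitters' processing notes name bcl2fastq, STAR 2.6.1c, featureCounts 1.6.4 and mm10. The strand setting and the treatment of multiply placed reads are not given in the sources used here, so counts of overlapping genes and of genes with near-identical copies are uncertain. The labels and the paper name different library kits. All 8 columns were matched to samples by name, with 0 columns left over. Counts passing filterByExpr (20477 genes) were fitted with edgeR 4.0.16 (R 4.3.3), TMM scaling and the quasi-likelihood test over all 8 libraries, and p-values were Benjamini-Hochberg adjusted over all tested genes. SE is the log2 fold change over the square root of F. Annotation was GENCODE M21, in which all 112 members were found. Replicates differed beyond sampling noise, but by little, with a common coefficient of variation of 3.35% beyond that noise. The p-values measure the spread between the 2 libraries of a condition, pooled over all 8 libraries. The study describes the 2 libraries as biological replicates. The members, the gene lists and the rule for named genes (all mitochondrial members, complex II, *Cyc1*, *Cycs*, isoform sets, the largest called change per complex and condition at a mean of 50 counts or more, any 2-fold change, called interactions, and the 2 largest called changes each way per pathway list) were chosen with earlier results of these data known. *Ndufv1*, *Ndufa4*, *Atp5b*, *Atp5f1*, *Slc25a31*, *Ppargc1a* and the full set of values for *Nrf1* and *Gabpa* were added after their values were seen. The fit was tested on simulated counts. DESeq2 1.42.0, other scalings and filters, left-out libraries, and offsets for GC content and length were tried as alternatives.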

Additional observations from a re-analysis of the deposited data

Results flagged for a closer look

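The effect of retinoic acid on *Ndufa12* differed between the 2 media by an interaction of 0.34 on the log2 scale (edgeR quasi-likelihood test, adjusted p = 0.0151). In full medium the change with retinoic acid was 0.021 ± 0.066 (adjusted p = 0.824) and in diluted medium it was 0.36 ± 0.067 (adjusted p = 7.66e-05), and both NRRA libraries lay above both NR libraries. DESeq2 gave 0.32 with an adjusted p of 0.0914, and over all alternatives the adjusted p lay between 0.00244 and 0.537. The call was lost without NR replicate 1 (0.33), NR replicate 2 (0.26), NRRA replicate 2 (0.27), RA replicate 2 (0.31) and Veh replicate 1 (0.22). Of its read-length stretches 11.4% also occur in *Gm15920*. The cause was not tested. With 2 libraries a condition, no group was large enough to be searched for outlying samples.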

How the results depend on the processing

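With 2 libraries a condition, depth limits single-gene changes mostly for the scarce members, and the counts of calls rest on the pooled spread of all 8 libraries. The numbers below are members called higher and lower of 106. Of 122 calls on named genes, 68 were kept under every alternative other than glmTreat (RA 4 of 18, NR 16 of 28, NRRA 21 of 30).

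Against Veh, members higher under RA were 3, and were 0 by DESeq2, 0 by glmTreat against a fold of 1.2, 1 without a count filter, 9 by total count, 5 by upper quartile and 0 at 2-fold, with 1 to 5 when a library was left out. Those lower were 35, and were 3 by glmTreat, 19 with only the 2 groups fitted, 9 by total count and 0 at 2-fold (18 to 32 with a library left out). Under NR the 1 higher became 0 by DESeq2, 5 with the GC content and length offset (5 with the replicate block added), 0 by glmTreat, 2 without a filter and 0 at 2-fold (1 to 1). The 66 lower became 16 by glmTreat and 0 at 2-fold (43 to 65). Under NRRA the 2 higher became 1 by DESeq2 size factors, 1 by DESeq2, 11 with the offset (11 with the block), 1 by glmTreat, 1 with 2 groups, 4 by total count and 0 at 2-fold (1 to 3). The 73 lower became 28 by glmTreat, 47 by total count and 1 at 2-fold (59 to 72).

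For NRRA against RA the 2 higher became 5 with the offset (5 with the block), 1 by glmTreat and 0 at 2-fold (2 to 3), and the 57 lower became 9 by glmTreat and 0 at 2-fold (37 to 66). For NRRA against NR the 12 higher became 7 by DESeq2, 2 by glmTreat, 19 by total count and 0 at 2-fold (6 to 12), and the 22 lower became 3 by glmTreat, 10 by total count and 1 at 2-fold (14 to 35). In the interaction the 1 higher became 0 by DESeq2, 12 with the offset (10 with the block), 0 by glmTreat, 2 without a filter, 0 at 2-fold and, chosen after seeing the data, 0 among members with few shared stretches (0 to 9), and the 0 lower became 3 with the offset (3 with the block), 1 by total count and 1 by upper quartile (0 to 4). Total-count scaling moved the median of all genes from 0.03 to 0.14 in NRRA against Veh and from -0.019 to 0.083 under RA.

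The offset turned the sign of single members, and the value with the replicate block is given second. Against Veh these were *Uqcrb* (-0.057, -0.055), *mt-Co2* (-0.24, -0.25) and *mt-Co3* (-0.24, -0.24) under RA, *Cox4i1* (0.0065, 0.0065), *Cox6a1* (0.052, 0.053) and *mt-Atp8* (-0.33, -0.34) under NR, and *Atp5g2* (0.032, 0.032), *Cox6a1* (0.17, 0.17), *Cox7a2l* (0.027, 0.029), *Cox7b2* (-0.27, -0.27), *Cyc1* (0.05, 0.051), *Ndufa12* (0.0049, 0.0057), *mt-Atp6* (-0.25, -0.25) and *mt-Atp8* (-0.42, -0.42) under NRRA. In the interaction they were *mt-Nd1* (0.14, 0.14) and *mt-Nd4* (0.15, 0.15). Total-count scaling turned *mt-Cytb* under RA to 0.0035. The median GC content was 49.8% for nuclear and 37.1% for mitochondrial members. The cause was not tested.

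Samples with the same replicate number deviated together little or not at all (r of -0.094 to 0.141 across 12620 genes for the 6 pairs of conditions). No clear pairing by number was seen. Replicates differed by little, so these values cannot show that the samples were unpaired. With the replicate block alone, 35, 65 and 72 members were lower under RA, NR and NRRA against Veh, 58 in NRRA against RA and 22 in NRRA against NR.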
